A study of Mus musculus with 7 samples.

Results

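The genes of fat cells and lipid droplets followed in dystrophic soleus muscle were Adipoq, Cfd, Plin1, Plin4, Cidec, Fabp4, Lep, Pparg, Retn and Scd1. They were taken by gene symbol from the deposited table, where all 10 were found among 29869 genes, and all 10 passed the filter on low counts that left 14033 genes for testing. RNA was sequenced from whole soleus, a slow-twitch hindlimb muscle, of mice aged 60 days. Libraries labelled mdx/Runx1f/f came from 3 animals (359, 363 and 374), which carried mdx, the mutation that removes dystrophin and models Duchenne muscular dystrophy, together with floxed alleles of the transcription factor gene Runx1. Libraries labelled mdx came from 4 animals (358, 361, 373 and 375) with the mdx mutation and no floxed Runx1 in their label. The labels name no strain, sex or Cre driver, so the cells in which Runx1 could have been recombined are not known.

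The labels conflicted. The titles, used here, give the grouping above, while the description field ties most samples to another animal number and the design text counts 3 mdx and 4 mdx/Runx1f/f muscles. Runx1 itself had 919, 925 and 596 normalised counts in the libraries labelled mdx/Runx1f/f, against 274, 273, 235 and 201 in those labelled mdx. It was thus higher, not lower, where the floxed alleles were named (log2 fold change 1.74, edgeR adjusted p = 0.00795). Gene-level counts need not report on a deleted exon. The reason for the higher Runx1 count was not tested. Nor was it tested whether the group labels were exchanged, which would reverse every direction below. Every direction below is therefore that of the labelled groups. Libraries held between 16218306 and 20847902 counts. Muscle-fibre markers (Acta1, Ckm, Myh7, Myh2, Tnnt1 and Tnni1) summed to between 884477 and 1034670 normalised counts in the libraries labelled mdx/Runx1f/f and to between 1174200 and 1510530 in those labelled mdx. Of the 6, edgeR gave 0 an adjusted p below 0.05, and DESeq2 gave 1, which was lower. Acta1, the largest part of every sum, had group means of 524069 and 655174 (edgeR adjusted p = 0.521). Only Acta1, Myh7 and Tnnt1 did not overlap between the groups. Ckm, Myh2 and Tnni1 overlapped, and the Ckm means were 130242 and 131794. What the sums say of fibre content was not tested.

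White fat cells store triglyceride in a single large droplet whose surface is coated by perilipins. The nuclear receptor PPARgamma (Pparg) with C/EBP proteins turns on their gene programme, and mature cells release hormones such as adiponectin and leptin. In injured or dystrophic muscle, fat cells arise from stromal fibro-adipogenic progenitors, while muscle fibres, endothelium and macrophages also handle fatty acids with some of the same proteins. In whole-muscle RNA, more cells of a type and more RNA per cell cannot be told apart.

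Upstream sequences of genes that moved together across the libraries are shown to let their letters be compared. They are the 250 bases before the RefSeq transcription start on GRCm38.p6, which is not the mm9 build of the counts, and are written 5′ to 3′ on the strand of the gene. Capitals mark a CCAAT box (CCAAT, or ATTGG on the other strand) or the palindrome TTGCGCAA bound by C/EBP proteins. Those of Adipoq (chr16:23146286-23146535, plus strand), Cfd (chr10:79890603-79890852, plus strand), Plin1 (chr7:79732777-79733026, minus strand), the more upstream of the starts given for Cidec (chr6:113435761-113436010, minus strand) and Lep (chr6:29059971-29060220, plus strand) read:
Adipoq: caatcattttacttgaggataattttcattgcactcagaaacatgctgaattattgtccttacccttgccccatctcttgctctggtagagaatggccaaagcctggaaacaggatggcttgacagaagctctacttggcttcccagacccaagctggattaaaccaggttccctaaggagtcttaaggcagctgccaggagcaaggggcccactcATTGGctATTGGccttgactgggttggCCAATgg
Cfd: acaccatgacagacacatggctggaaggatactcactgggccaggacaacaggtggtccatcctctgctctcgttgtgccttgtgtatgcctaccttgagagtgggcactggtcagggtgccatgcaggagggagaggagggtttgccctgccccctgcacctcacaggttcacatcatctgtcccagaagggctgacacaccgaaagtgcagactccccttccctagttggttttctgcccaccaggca
Plin1: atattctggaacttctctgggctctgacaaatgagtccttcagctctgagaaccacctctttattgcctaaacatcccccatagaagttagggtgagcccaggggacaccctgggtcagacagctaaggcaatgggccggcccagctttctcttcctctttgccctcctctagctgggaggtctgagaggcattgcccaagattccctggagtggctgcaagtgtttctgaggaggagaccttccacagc
Cidec: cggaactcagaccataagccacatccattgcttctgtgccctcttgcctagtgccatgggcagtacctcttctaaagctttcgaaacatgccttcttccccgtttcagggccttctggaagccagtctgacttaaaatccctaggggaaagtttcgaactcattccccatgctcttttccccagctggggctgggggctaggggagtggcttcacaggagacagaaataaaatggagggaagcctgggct
Lep: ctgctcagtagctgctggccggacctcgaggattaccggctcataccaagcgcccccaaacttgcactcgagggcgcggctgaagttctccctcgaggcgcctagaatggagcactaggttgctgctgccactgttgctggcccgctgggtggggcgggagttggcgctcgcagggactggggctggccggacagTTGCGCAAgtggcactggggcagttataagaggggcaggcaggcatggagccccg

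The table of promoters matched 8 of the 10 genes, all but Fabp4 and Scd1, with 11 windows of 250 bases. The palindrome TTGCGCAA stood in the window of Lep, starting 55 bases before the start, and in 0.164% of the 32851 windows of all genes. C/EBPalpha is known to activate the leptin promoter. The window of Adipoq held 3 CCAAT boxes within 34 bases of the start, and 4 of the 11 windows (those of Adipoq, Plin4 and 2 of Pparg) held at least 1, against 33.85% of all windows. The TATA box (TATAAA, or TTTATA on the other strand) stood in 1 window, a start of Pparg, against 12.37% of all windows. AGGTCA, the half-site of nuclear receptors (TGACCT on the other strand), stood in 2 windows of Pparg and 14.02% of all windows. TGTGGT, a core that Runx proteins bind (ACCACA on the other strand), stood in 0 of the 11 windows and in 14.05% of all windows. No motif overlapped another within the printed windows, and these are matches of letters only.

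Of the 10 genes, 4 were called higher and 0 lower in libraries labelled mdx/Runx1f/f. A gene was called where edgeR's quasi-likelihood test gave a Benjamini-Hochberg p, adjusted over the whole set tested, under 0.05. They were the adipokine genes Adipoq and Cfd and the droplet genes Plin1 and Cidec, each at least 4.598-fold and at most 5.19-fold higher. Across all 14033 tested genes 6.95% were called, 5.10% higher and 1.85% lower. The 10 genes had a median log2 fold change of 2.13, against -0.0016 over all tested genes, and 7 were higher and 0 lower at an unadjusted p below 0.05, as were 2395 and 1740 of all tested genes. DESeq2 called 6 of the 10 higher and 0 lower, beside 1469 higher and 867 lower of the 20152 genes it was run on. Limma-voom called 2 of the 10 higher and 0 lower, beside 736 and 288 of all tested genes. The genes were chosen with earlier results of these data known, so the count describes them and is not independent evidence of a direction.

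Adipoq encodes adiponectin, a hormone made almost only by fat cells. It had 296, 542 and 998 normalised counts in the libraries labelled mdx/Runx1f/f, against 209, 107, 105 and 90.8 in those labelled mdx, replicates in order. Every library labelled mdx/Runx1f/f stood above every library labelled mdx, but the lowest of the first and the highest of the second lay close together. The means were 612 ± 356 (SD, n = 3) and 128 ± 54.7 (SD, n = 4). This was a 4.79-fold difference, or 2.26 on the log2 scale (SE 0.44, edgeR adjusted p = 0.0281).

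Cfd encodes adipsin, also called complement factor D, a serine protease that fat cells secrete in large amounts. Its normalised counts were 1228, 1827 and 4020.1 in the libraries labelled mdx/Runx1f/f, against 804, 421, 464 and 370.2 in those labelled mdx. Replicate 3 of the mdx/Runx1f/f libraries was again the highest and replicate 1 the highest of the mdx libraries, with no overlap of the groups. Its log2 fold change was 2.20 (SE 0.42, edgeR adjusted p = 0.0281).

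Plin1 encodes perilipin 1, the droplet coat of fat cells that holds back lipolysis until hormones release it. It had 91.1, 124 and 329 normalised counts in the libraries labelled mdx/Runx1f/f, against 46.5, 31.3, 42.0 and 34.6 in those labelled mdx. The libraries labelled mdx lay within 1.48-fold of each other and those labelled mdx/Runx1f/f within 3.61-fold, without overlap. The log2 fold change was 2.23 (SE 0.43, edgeR adjusted p = 0.0289). The mdx libraries held 30 to 44 raw counts of it each.

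Cidec encodes a droplet protein, also named FSP27 in mice, that passes lipid between touching droplets and so makes them large. Its normalised counts were 166, 348 and 698 in the libraries labelled mdx/Runx1f/f, against 147, 81.5, 44.2 and 39.5 in those labelled mdx. The groups did not overlap, yet mdx/Runx1f/f replicate 1 exceeded mdx replicate 1 by little. Of the called genes it had the largest log2 fold change, 2.38 (SE 0.57), and the highest edgeR adjusted p, 0.0480.

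**Figure D1:**
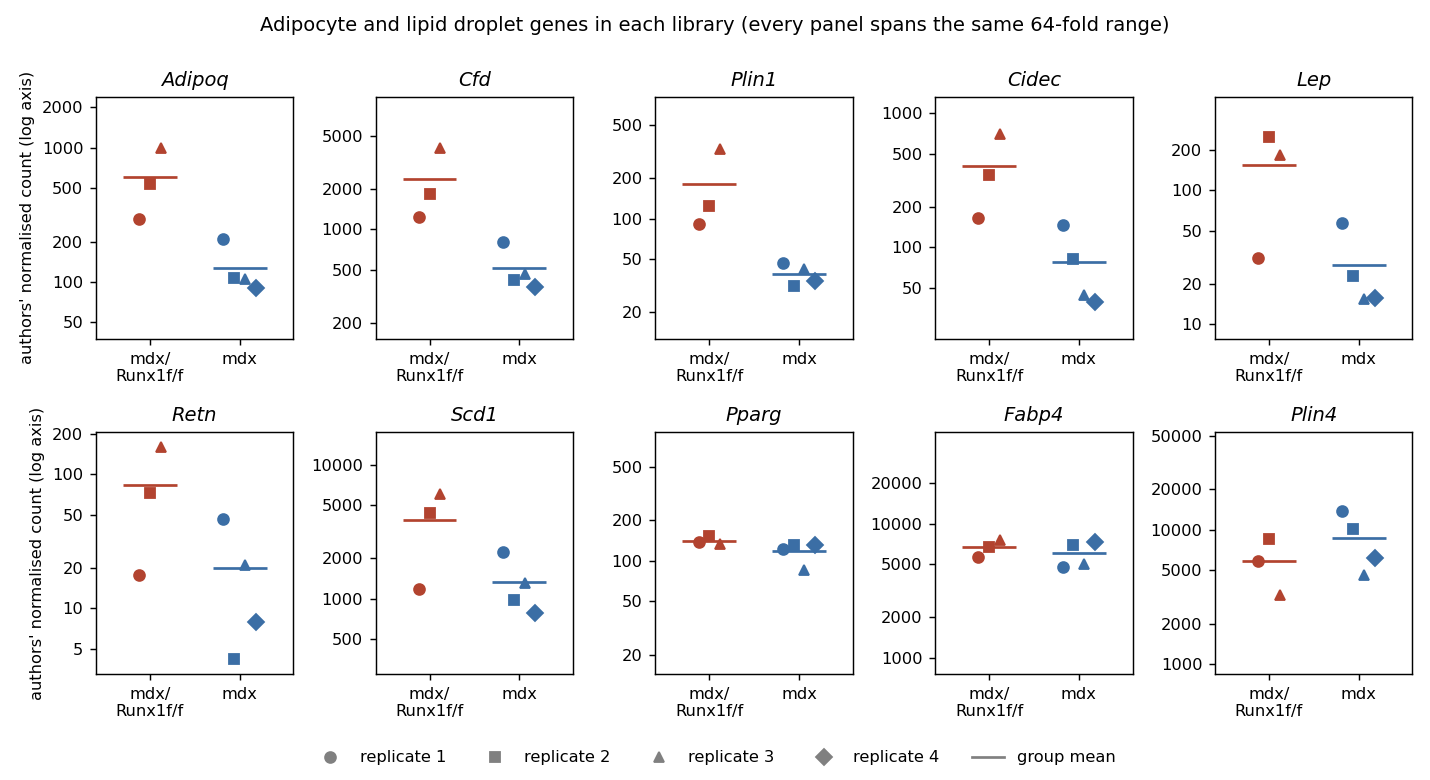
Authors' normalised counts of the 10 genes (log axis, every panel spanning the same fold range) in the libraries labelled mdx/Runx1f/f (left, red) and mdx (right, blue), with a marker per replicate and a line at the group mean. Adipoq, Cfd, Plin1 and Cidec do not overlap between groups, while mdx/Runx1f/f replicate 1 lies among the mdx libraries for Lep, Retn and Scd1.

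The hormone genes Lep and Retn and the desaturase gene Scd1 had positive log2 fold changes but were not called. Lep encodes leptin, the satiety hormone whose level follows the size of fat stores. It had 31.3, 251 and 182 normalised counts in the libraries labelled mdx/Runx1f/f, against 57.1, 23.0, 15.5 and 15.8 in those labelled mdx. The groups overlapped: mdx/Runx1f/f replicate 1 fell below mdx replicate 1, and replicate 2, not replicate 3, was the highest. The log2 fold change was 2.48 (SE 0.70, edgeR adjusted p = 0.0688). Raw counts were between 14 and 331 per library.

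Retn encodes resistin, a hormone that mouse fat cells secrete. It had 17.6, 72.8 and 159 normalised counts in the libraries labelled mdx/Runx1f/f, against 46.5, 4.18, 20.98 and 7.90 in those labelled mdx. Here mdx/Runx1f/f replicate 1 stood below both replicate 1 and replicate 3 of the mdx libraries. Its log2 fold change was 2.06 (SE 0.85, edgeR adjusted p = 0.152). The mdx libraries held 4 to 44 raw counts of it each.

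Scd1 encodes stearoyl-CoA desaturase 1, which puts the double bond into newly made fatty acids. It had 1189.9, 4335 and 6061 normalised counts in the libraries labelled mdx/Runx1f/f, against 2238, 984, 1303 and 787 in those labelled mdx. The order of the libraries was like that of Retn, with mdx/Runx1f/f replicate 1 below mdx replicates 1 and 3. Its log2 fold change was 1.54 (SE 0.53, edgeR adjusted p = 0.107). Scd1 has close paralogs, and the labels do not say how reads that match more than 1 gene were counted. In the authors' deposited table the adjusted p was 0.00633 for Lep, 0.0328 for Scd1 and 0.0823 for Retn.

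Pparg, Fabp4 and Plin4 were not called, and their log2 fold changes were small or negative. Pparg encodes the nuclear receptor that directs fat-cell formation. It had 137, 152 and 133 normalised counts in the libraries labelled mdx/Runx1f/f, against 123, 131, 85.0 and 131 in those labelled mdx. The groups did not overlap, but 133 and 131 were next to each other, and the log2 fold change was 0.27 (SE 0.18, edgeR adjusted p = 0.334). In 5 of the 10 genes, the 4 called genes and Pparg, every mdx/Runx1f/f library stood above every mdx library, as in 13.9% of all tested genes.

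Fabp4 encodes a fatty acid carrier of fat cells that capillary endothelium and macrophages also make. Its normalised counts were 5638, 6725 and 7586 in the libraries labelled mdx/Runx1f/f, against 4773, 6884, 5042 and 7259.9 in those labelled mdx. The groups were interleaved and all 7 libraries lay within 1.59-fold. The log2 fold change was 0.16 (SE 0.19, edgeR adjusted p = 0.607), and Fabp4 was called in none of the 17 fits run. The endothelial markers Pecam1, Cdh5, Kdr, Tek and Emcn likewise overlapped between the groups, with sums of 8282 to 11864 normalised counts in the libraries labelled mdx/Runx1f/f and 7238 to 14826 in those labelled mdx. Vwf, another gene of endothelium, picked below for its likeness to Adipoq, Plin1 and Cidec, was called higher (log2 fold change 0.89, edgeR adjusted p = 0.0243). Vwf kept that call in 3 of the 7 fits with 1 library left out. The part of endothelium in the level of Fabp4 was not tested.

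Plin4 encodes perilipin 4, a droplet coat protein found in fat cells and in skeletal muscle. It had 5883, 8487 and 3256 normalised counts in the libraries labelled mdx/Runx1f/f, against 13713, 10184 and then 4637 and 6171 in those labelled mdx. Its lowest level was in mdx/Runx1f/f replicate 3, the library with the most Adipoq, Cfd, Plin1 and Cidec, and its highest in mdx replicate 1. The log2 fold change was -0.56 (SE 0.43, edgeR adjusted p = 0.415). In GENCODE vM21 an exon of Hdgfl2 on the opposite strand overlaps Plin4, and the strand setting of the counting is not given, so reads of both cannot be told apart there. Both mdx libraries of animals 358 and 361 were above those of animals 373 and 375. With this number series as a term in the fit, Plin4 was called lower for mdx/Runx1f/f (log2 fold change -0.73, edgeR adjusted p = 0.0446).

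**Figure D2:**
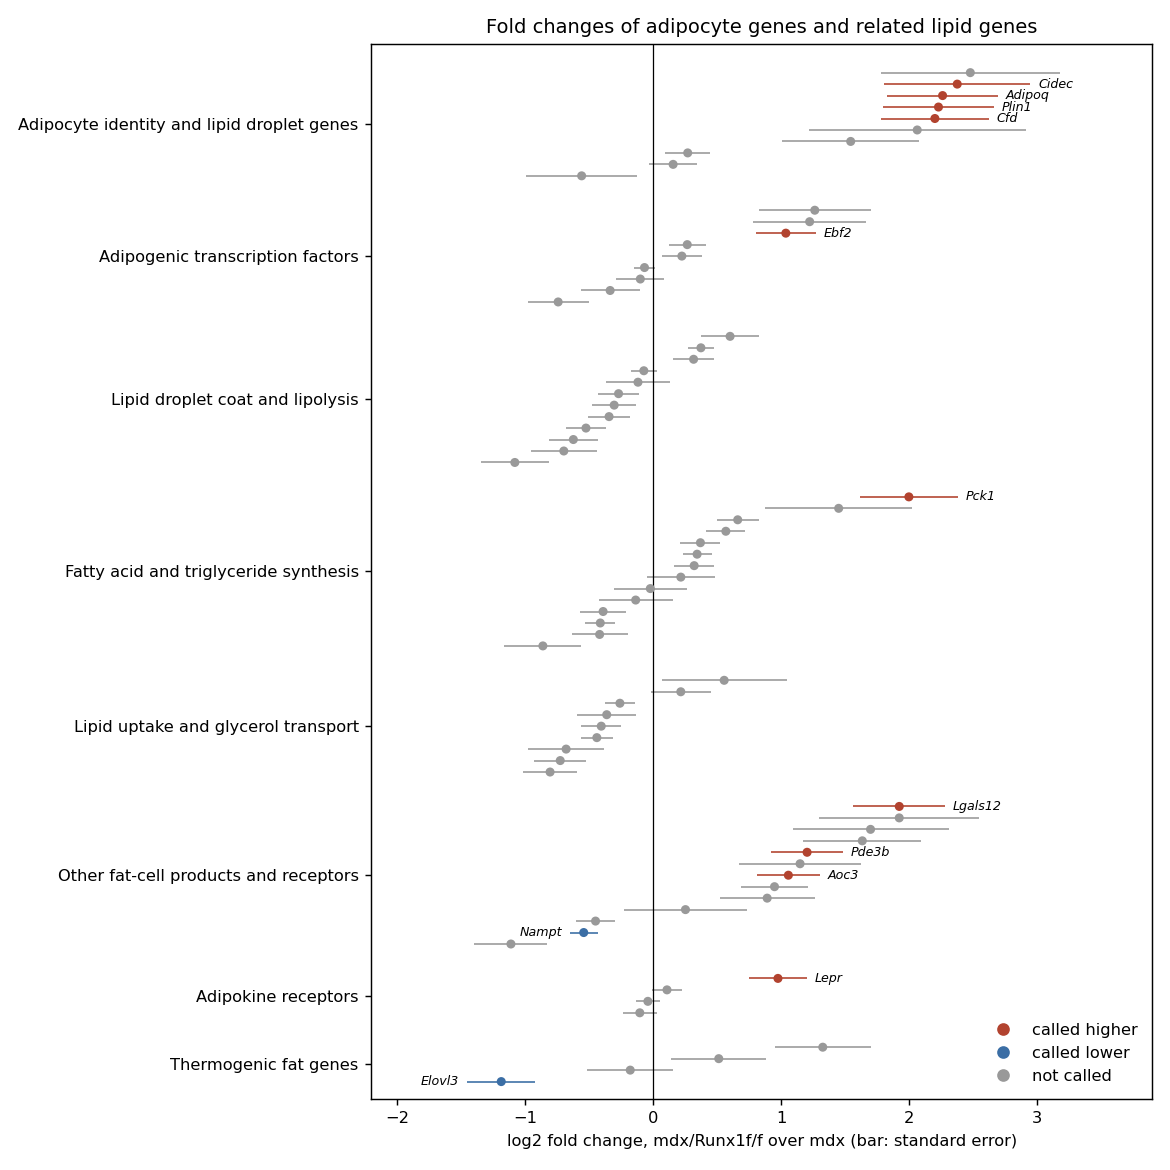
Log2 fold change of each tested gene, mdx/Runx1f/f over mdx, with its standard error as a bar, for the 10 adipocyte genes (top) and the 7 related lists. Of the 10 genes 4 are called higher (red) and 0 lower (blue), and of the 65 related genes 6 are called higher and 2 lower.

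The ratio of each gene to Adipoq within the same library removes depth and scaling, since both counts come from 1 library. For Cfd the ratio of raw counts was 4.15, 3.37 and 4.03 in the libraries labelled mdx/Runx1f/f, against 3.84, 3.95, 4.42 and 4.08 in those labelled mdx. It thus spanned 1.31-fold while the level of Adipoq spanned 10.99-fold over the same 7 libraries. The ratios of Plin1 and Cidec to Adipoq spanned 1.80-fold and 1.82-fold, with ranges that overlapped between the groups. The ratio of Scd1 was 4.02 to 8.01 in the libraries labelled mdx/Runx1f/f and 8.66 to 12.4 in those labelled mdx, a 3.09-fold span without overlap. Those of Lep and Retn spanned 4.38-fold and 5.67-fold and overlapped. Lep was highest relative to Adipoq in mdx/Runx1f/f replicate 2, at 0.464, and lowest in mdx/Runx1f/f replicate 1, at 0.106.

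Pparg, Fabp4 and Plin4 did not follow Adipoq. Relative to it, Pparg stood at 0.134 to 0.464 in the libraries labelled mdx/Runx1f/f and at 0.586 to 1.45 in those labelled mdx. Fabp4 stood at 7.60 to 19.1 and Plin4 at 3.26 to 19.9 in the libraries labelled mdx/Runx1f/f, against 22.8 to 79.9 for Fabp4 and 44.2 to 95.6 for Plin4 in those labelled mdx. As a description over the 7 libraries, which share both group and scaling, Pearson's r of log2 CPM (depth-scaled counts on a log scale) with Adipoq was 0.996 for Cfd, 0.981 for Cidec and 0.969 for Plin1. It was 0.916 for Lep, 0.914 for Scd1 and 0.883 for Retn. It was 0.509 for Pparg, 0.307 for Fabp4 and -0.343 for Plin4.

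**Figure D3:**
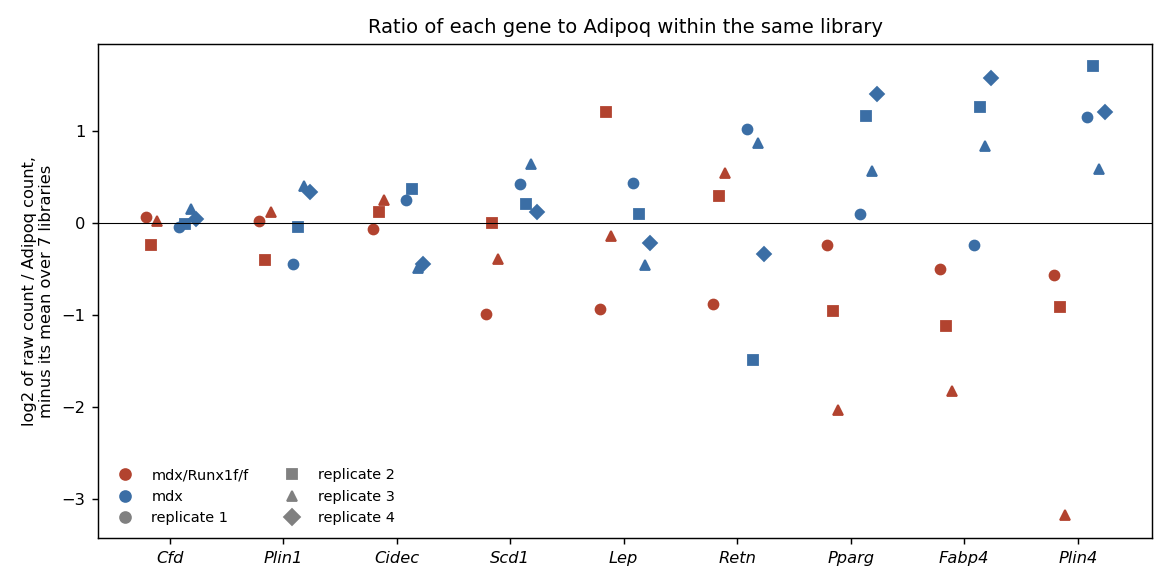
Log2 of each gene's raw count over the Adipoq count of the same library, minus its mean over the 7 libraries, for libraries labelled mdx/Runx1f/f (red) and mdx (blue), with a marker per replicate. The points of Cfd span 1.31-fold, those of Plin1 and Cidec 1.80-fold and 1.82-fold, and those of Pparg, Fabp4 and Plin4 between 10.5-fold and 29.3-fold.

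Levels of fat-cell genes differed among the libraries of 1 group as well. From replicate to replicate the highest Adipoq count was 3.37 times the lowest among the libraries labelled mdx/Runx1f/f and 2.30 times among those labelled mdx, and for Retn these ratios were 9.04 and 11.1. In the libraries of animals 358 to 363 (2 against 2) the log2 fold change of Adipoq was 1.42 and in those of animals 373 to 375 (1 against 2) it was 3.35. For Cfd these were 1.33 and 3.28, for Plin1 1.48 and 3.11, for Cidec 1.19 and 4.06, for Lep 1.84 and 3.54, for Retn 0.87 and 3.48, and for Scd1 0.79 and 2.54. All 7 genes were thus positive in both animal series, with the larger value in animals 373 to 375. They are the 7 of the 10 genes with the largest values in the fit of all libraries. That fit holds both series, so the shared sign is not independent evidence of a direction. The difference between the series was not tested. Fitted alone, animals 358 to 363 gave 0 called genes among the 10 and among all tested genes by edgeR. At an unadjusted p below 0.05, 4 of the 10 were higher and 1 lower there, and of all tested genes 1658 were higher and 1011 lower. In the fit of animals 373 to 375, the lone library labelled mdx/Runx1f/f is assumed to vary like the mdx pair.

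The calls depended on single libraries. With each of the 7 libraries left out in turn, the log2 fold change of Adipoq was between 1.71 and 2.60, that of Cfd between 1.56 and 2.51, that of Plin1 between 1.47 and 2.54 and that of Cidec between 1.72 and 2.87. Without mdx/Runx1f/f replicate 2 or mdx replicates 2, 3 or 4, 0 of the 10 genes were called by edgeR, with 5, 5, 6 and 5 higher and 0 lower at an unadjusted p below 0.05. Calls over all tested genes were fewer in these fits too, at 173, 329, 219 and 290 higher and 17, 78, 44 and 94 lower, against 715 and 260 with all libraries. At an unadjusted p below 0.05 these fits had 1764, 2218, 1879 and 2028 genes higher and 1060, 1561, 1199 and 1397 lower. Without mdx/Runx1f/f replicate 3, Cfd and Plin1 were called (edgeR adjusted p = 0.0445 and 0.0324) and Adipoq was at 0.0503. Without mdx/Runx1f/f replicate 1, Lep and Scd1 were called beside the other 4 (log2 fold change 2.96 and 1.97, edgeR adjusted p = 0.0298 and 0.0414). Without mdx replicate 1 the same 4 genes were called as with all libraries. Leaving out mdx/Runx1f/f replicate 3 lowered the fold change of Cfd, Plin1 and Cidec by over 1.5 times, and that of Retn to a log2 value of 1.19. Leaving out mdx replicate 1 gave higher log2 values for Retn (2.91) and Lep (3.09), neither called (edgeR adjusted p = 0.0847 and 0.0515).

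**Figure D4:**
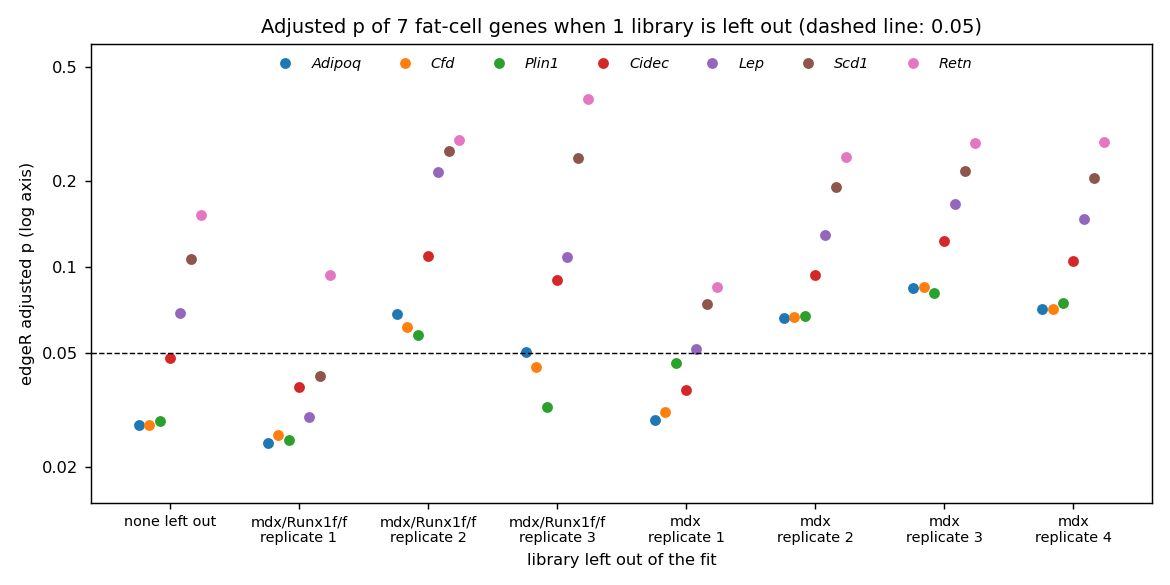
Adjusted p of edgeR's quasi-likelihood test (log axis) for 7 fat-cell genes in the fit of all 7 libraries (left) and in the fits without the library named on the x axis, with a dashed line at 0.05. All points stand above the line without mdx/Runx1f/f replicate 2 or mdx replicates 2, 3 or 4.

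Related genes of fat-cell and lipid metabolism, 72 in the table and 65 tested, were tested in the same fit: 6 were higher and 2 lower, with a median log2 fold change of -0.02. Of all 14033 tested genes 5.10% were called higher and 1.85% lower, and 2395 were higher and 1740 lower at an unadjusted p below 0.05. At these shares, a list of few genes can hold no call without differing from the rest. None of the 8 calls among related genes was kept in more than 3 of the 7 fits with a library removed. Pck1 kept its call in 3, Lgals12, Pde3b and Lepr in 2, Ebf2, Nampt and Aoc3 in 1 and Elovl3 in 0. Among other products and receptors of fat cells, 3 of 13 tested genes were higher and 1 lower (median 1.06), with 9 higher and 3 lower at an unadjusted p below 0.05. DESeq2 called 7 of them higher and 3 lower, and limma-voom 2 and 2. Lgals12, which encodes a galectin of fat-cell droplets, had 44.1, 113 and 97.6 normalised counts in the libraries labelled mdx/Runx1f/f, against 26.4, 17.8, 16.6 and 28.6 in those labelled mdx. Its log2 fold change was 1.92 (SE 0.36, edgeR adjusted p = 0.0265). Pde3b, the phosphodiesterase gene through which insulin restrains lipolysis, and Aoc3, an amine oxidase gene of fat and smooth muscle cells, had log2 fold changes of 1.20 and 1.06 (edgeR adjusted p = 0.0447 and 0.0432). Nampt, which makes an NAD precursor in many tissues, was lower (-0.54, edgeR adjusted p = 0.0321).

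Of 14 tested genes of fatty acid and triglyceride synthesis, 1 was higher and 0 lower (median 0.27), with 6 higher and 2 lower at an unadjusted p below 0.05. DESeq2 called 3 higher and 2 lower, and limma-voom 1 higher and 0 lower. The called gene was Pck1, the enzyme by which fat cells make glycerol for triglyceride, with 106, 175 and 329 normalised counts in the libraries labelled mdx/Runx1f/f, against 72.9, 41.8, 46.4 and 42.4 in those labelled mdx (log2 fold change 2.00, SE 0.39, edgeR adjusted p = 0.0281). Its order of libraries was close to that of Adipoq. Scd2 and Acly, which supply desaturated and 2-carbon building blocks, had log2 fold changes of 0.66 and 0.57 (edgeR adjusted p = 0.0512 and 0.0598).

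Droplet coat and lipolysis genes other than the 10 showed no call in 12 tested (median -0.29). At an unadjusted p below 0.05, 2 were higher and 4 lower, DESeq2 called 1 higher and 3 lower and limma-voom 0 higher and 1 lower. Plin3, a droplet coat gene used by many cell types, had 580, 728 and 753 normalised counts in the libraries labelled mdx/Runx1f/f, against 2265, 1086, 1305 and 1172 in those labelled mdx (log2 fold change -1.08, edgeR adjusted p = 0.0505). Fitm1, a droplet-forming gene of muscle, stood at -0.52 and Bscl2, the seipin gene, at 0.37 (edgeR adjusted p = 0.0755 and 0.0648).

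Lipid uptake and glycerol transport likewise held no call among 9 tested genes (median -0.40). At an unadjusted p below 0.05, 0 were higher and 4 lower, DESeq2 called 0 higher and 3 lower and limma-voom 0. Lpl, the lipase that frees fatty acids from blood lipoproteins in fat and muscle, had 17218, 25699 and 29959 normalised counts in the libraries labelled mdx/Runx1f/f, against 41975, 39183, 38599 and 41401 in those labelled mdx. The groups did not overlap, and the log2 fold change was -0.72 (edgeR adjusted p = 0.0689). Aqp7, a glycerol channel gene, and Slc27a1, a fatty acid transporter gene, had -0.80 and -0.44 (edgeR adjusted p = 0.0558 and 0.0671).

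Of 9 tested adipogenic transcription factors 1 was higher and 0 lower (median 0.23), with 3 higher and 1 lower at an unadjusted p below 0.05. DESeq2 called 3 higher and 1 lower, and limma-voom 1 higher and 0 lower. The gene called by edgeR was Ebf2, a factor of fat precursors and brown fat, with 208, 190.4 and 258 normalised counts in the libraries labelled mdx/Runx1f/f, against 83.5, 142, 78.4 and 123 in those labelled mdx (log2 fold change 1.04, edgeR adjusted p = 0.0405). Cebpd, an early adipogenic factor, stood at 1.26 and Klf15 at -0.74, neither called (edgeR adjusted p = 0.106 and 0.0900). Cebpd had 422 normalised counts in mdx/Runx1f/f replicate 2, against 144 and 115 in the other replicates of that label, and without that library its log2 fold change was 0.46. Of 4 adipokine receptor genes, the leptin receptor gene Lepr was higher (0.98, edgeR adjusted p = 0.0444), while the adiponectin receptor gene Adipor1 and the adiponectin-binding cadherin gene Cdh13 had 0.11 and -0.10 (edgeR adjusted p = 0.562 and 0.639). Of 4 tested thermogenic genes 0 were higher and 1 lower (median 0.17). The lower one was Elovl3, at 13.01 to 21.2 normalised counts in the libraries labelled mdx/Runx1f/f and 31.6 to 46.4 in those labelled mdx (log2 fold change -1.19, edgeR adjusted p = 0.0406). Without any 1 of the 7 libraries its adjusted p was between 0.0660 and 0.108, and with no filter on low counts it was not called. Zic1 and Prdm16, factors of brown fat, stood at 1.33 and 0.51 (edgeR adjusted p = 0.0688 and 0.383). Ucp1, the uncoupling protein that defines brown fat, had 0 counts in all 7 libraries, which allows up to 3 counts in each.

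Outside the 10 genes, the genes most like the mean standardised level of Adipoq, Plin1 and Cidec over the 7 libraries were Pck1 (Pearson's r = 0.996), Slc25a10 (0.989), Pon1 (0.988), Vwf (0.982), Tmed7 (0.981), Phf13 (0.978), Sec23b (0.978) and Pde3b (0.977). They were picked from 12879 genes, of which 205 had r above 0.9, so the values only describe these 7 libraries. That mean level was at least 0.27 in the libraries labelled mdx/Runx1f/f and at most -0.17 in those labelled mdx. Genes picked for following it are therefore higher in mdx/Runx1f/f by the choice. The number of them called cannot be set against the 5.10% of all tested genes called higher. Of the 8, Pck1, Slc25a10, a mitochondrial dicarboxylate carrier gene, Pon1, a paraoxonase gene, Vwf, the von Willebrand factor gene of endothelium, and Pde3b were called higher, with log2 fold changes of 2.00, 0.69, 2.86, 0.89 and 1.20 (edgeR adjusted p = 0.0281, 0.0421, 0.0480, 0.0243 and 0.0447). With 1 library left out in turn, Pck1 and Vwf kept their calls in 3 of 7 fits, Slc25a10 and Pde3b in 2 and Pon1 in 1. Pon1 had a log2 fold change of 1.71 and was not called once mdx/Runx1f/f replicate 3 was left out. Tmed7, Phf13 and Sec23b had log2 fold changes between 0.20 and 0.22 and were not called.

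Some markers of other cells were called by edgeR too, while the endothelial and muscle-fibre markers listed above were not. The fat-forming stromal progenitor markers (Pdgfra, Ly6a, Cd34, Dpp4, Pi16 and Dlk1) summed to between 11185 and 11602 normalised counts in the libraries labelled mdx/Runx1f/f and to between 5062 and 7319 in those labelled mdx. Of the 6, 4 were called higher and 0 lower, against 5.10% and 1.85% of all tested genes. DESeq2 called 6 higher and limma-voom 4. With 1 library left out in turn, Pdgfra and Dlk1 kept their calls in 7 of 7 fits and Dpp4 and Pi16 in 6. Among the libraries labelled mdx/Runx1f/f the called marker Dlk1 itself differed by 3.92-fold (1107, 282 and 502 normalised counts), in another order than Adipoq, and without replicate 1 its log2 fold change was 3.99, against 4.69 with all libraries. The macrophage markers (Cd68, Emr1, Csf1r, Cd163 and Mrc1) summed to between 4143 and 10252 normalised counts in the libraries labelled mdx/Runx1f/f and to between 966 and 3912 in those labelled mdx, highest in mdx/Runx1f/f replicate 2. By edgeR and limma-voom 0 of the 5 were called, 4 were higher at an unadjusted p below 0.05 and DESeq2 called 3 higher. Cd68 was called without mdx replicate 1 (log2 fold change 2.78, edgeR adjusted p = 0.0456) and stood at 0.93 without mdx/Runx1f/f replicate 2. The myelin genes Mbp and Pmp22 of nerve were called higher too (log2 fold change 0.62 and 0.65, edgeR adjusted p = 0.0281 and 0.0239). Each kept its call in only 2 of the 7 fits with 1 library left out. In both, every mdx/Runx1f/f library stood above every mdx library, as in 13.9% of all tested genes. Of the skin markers, Krt5 had 0 counts in all libraries, Krt14 and Krt1 at most 1, and Krt10 was not called (log2 fold change -0.24). The part of these cells in the level of the fat-cell genes was not tested.

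**Figure D5:**
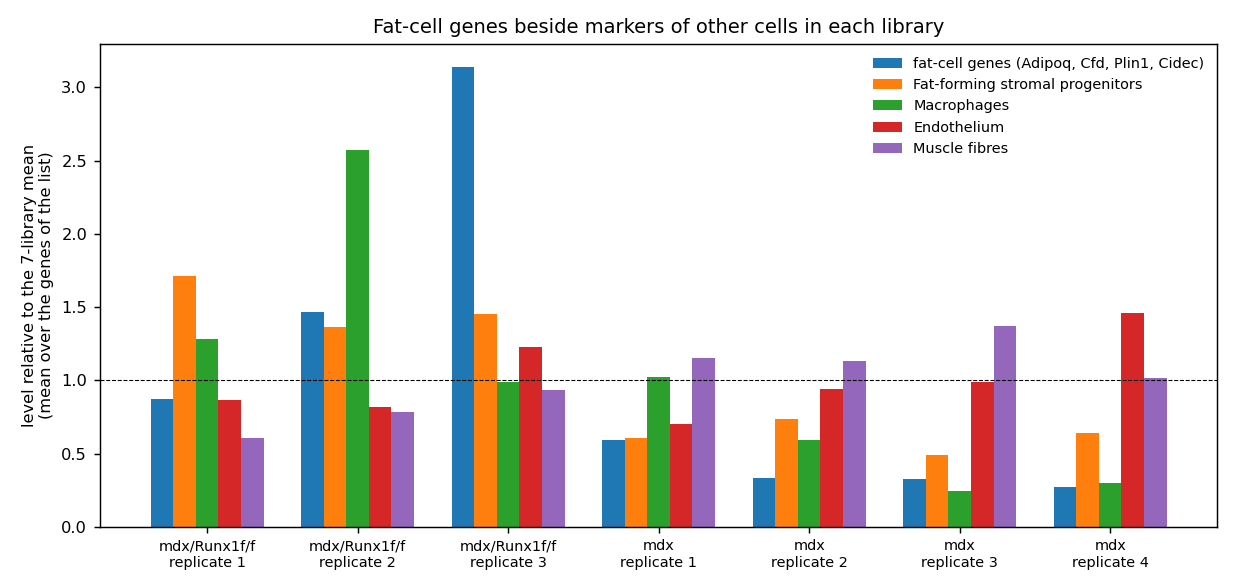
Mean over the genes of each list of the normalised count relative to its 7-library mean (y axis, from 0) in each library, for 4 fat-cell genes and 4 marker lists. The 4 fat-cell genes (Adipoq, Cfd, Plin1 and Cidec) are those called higher. Their higher level in the libraries labelled mdx/Runx1f/f therefore follows from the choice. Fabp4, Pparg, Plin4 and the others not called are left out. The 4 genes reach 3.14 in mdx/Runx1f/f replicate 3, where macrophage markers stand at 0.990. In mdx/Runx1f/f replicate 2 the 4 genes stand at 1.46 and macrophage markers at 2.57. The 4 genes lie between 0.271 and 0.595 in the libraries labelled mdx.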

How the data were processed

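The authors deposited 1 table of raw read counts per gene for 7 libraries, made with TopHat2 2.0.10 and HTSeq on mm9, per the submitters' processing notes. The notes state no annotation, strand setting or filter. Its second block holds the authors' normalised counts, a signal equal to the counts divided by 1 size factor per library. The table also gives, per the file headers, the authors' log2 fold change, its standard error, a test statistic (a score), p-value and adjusted p-value; DESeq2 1.6.3 is named in the notes. For all genes called here the authors' deposited sign was the same (100%). Both come from the same counts and grouping, so the sign could hardly differ.

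Columns were joined to samples through the animal numbers in the titles, read as separate animals. Counts were tested with edgeR 4.0.16 in R 4.3.3 (TMM, filterByExpr, quasi-likelihood, group as the only term, Benjamini-Hochberg over 14033 genes holding 99.9% of counts, threshold 0.05). The standard error is the log2 fold change over the root of F. Levels in the text are the authors' normalised counts. Log2 CPM used a prior count of 2. Alternatives were DESeq2 1.42.0, limma-voom 3.58.1, other scaling, filters and designs, and each library left out. On simulated counts of 14033 genes for this comparison, 54.0% of genes changed 2-fold and 91.0% of those changed 4-fold were recovered and 2.68% of calls were false. Every pair of libraries differed by more than sampling noise (lowest chi-square per degree of freedom 15.85).

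The 10 genes and all lists were chosen with earlier results of these data known. Named are the 10 genes, the called genes and the 3 with the smallest p of each related list, the markers (some are not reported here), and the 8 genes most like Adipoq, Plin1 and Cidec at a mean normalised count of at least 20. The limit given for Ucp1 covers counting error only. Standard errors and SDs include the spread between libraries.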

Additional observations from a re-analysis of the deposited data

Results flagged for a closer look

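Among the 4 libraries labelled mdx, 6 of the 66 genes examined had 1 library whose gap to its nearest neighbour took a share of the group's range above Dixon's critical value for 4 samples, which chance gives in about 1 in 20 groups. Adipoq (209 normalised counts), Pck1 (72.9) and Pde3b (109) stood high in mdx replicate 1. In that library the other 9 genes were not flagged, and the log2 fold change of Adipoq without it was 2.60. Prdm16 stood high in mdx replicate 2 at 15.7 normalised counts. The slow-fibre troponin genes Tnnt1 (58365 normalised counts) and Tnni1 (31706) stood low in mdx replicate 4.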

How the results depend on the processing

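Of the 10 genes, 9 had a positive and Plin4 a negative log2 fold change in every fit that tested them. All fits drew on the same 7 libraries, so their shared sign is not independent evidence. With all libraries 4 of the 10 were called higher and 0 lower, 6 and 2 of the related genes, and 715 and 260 of all tested genes. DESeq2 called 17 related genes higher and 13 lower, and 1469 and 867 of all genes. Limma-voom called 2 of the 10 higher and 4 related genes lower. A filter of 10 CPM in 3 libraries left 5 of the 10 tested, with 2 called higher, and 1 related gene lower. With the series of animal numbers in the model, 1 of the 10 (Plin4) and 7 related genes were lower, with 1246 higher and 582 lower of all genes. Animals 358 to 363 alone gave 0 calls by edgeR (8 related genes higher and 11 lower at an unadjusted p below 0.05). Animals 373 to 375 alone gave 7 higher and 1 lower of the 10, 18 and 8 related genes, and 1361 and 440 of all genes. The cause was not tested.

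The labels name no pairing of the samples. Same-numbered libraries correlated at -0.00687, 0.241 and 0.275 in their deviations from group means, and not every library correlated best with its own number. Deviations from a mean depend on each other in groups this small, so these correlations cannot decide whether the replicate numbers pair the samples. With a replicate block 0 of the 10 were called (4 higher and 1 lower at an unadjusted p below 0.05), 2 related genes higher and 0 lower, and 240 and 80 of all genes by edgeR.

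Leaving out 1 library gave 0 to 6 of the 10 higher and 0 lower, 0 to 7 related genes higher and 0 to 2 lower, and 173 to 641 of all genes higher and 17 to 209 lower. Some markers and Cdh13, none of them called with all libraries, changed sign. With animals 373 to 375 alone the log2 fold change was 0.24 for Cdh13, 0.23 for Emcn, 0.36 for Myh2 and 0.13 for Krt10, and with animals 358 to 363 alone 0.057 for Kdr and 0.45 for Ckm. With the replicate block it was 0.0021 for Cdh5, 0.047 for Kdr and 0.13 for Emcn, with the filter of 10 CPM 0.022 for Emcn and 0.044 for Ckm, and with the covariate 0.062 for Emcn and 0.038 for Ckm. With 1 library left out it was between -0.335 and 0.00356 for Cdh5, -0.368 and 0.166 for Emcn, -0.389 and 0.151 for Ckm and -0.919 and 0.0876 for Myh2. Counts as low as 4 per library limit Retn.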
